A study of Homo sapiens with 6 samples.

Results

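Translation initiation and elongation factors are the proteins that load a ribosome onto an mRNA and move it along the coding sequence. Their mRNAs were followed in K562 cells, a human erythroid leukemia line, after overnight exposure to 10 µM 21H7, an iron chelator that enters cells (the Chelator group, 3 libraries), or to an equal volume of its solvent, dimethyl sulfoxide (the DMSO group, 3 libraries). The genes were chosen by name: protein-coding genes whose symbol begins with EIF or EEF followed by a digit, without the kinases, methyltransferases and other proteins that share the prefix (EIF2AK and EEF1AKMT genes, EIF4EBP1, EEF1E1, EEF2K, EEF2KMT) and without hyphenated read-through names. This gave 57 of the 62252 genes in the files. The naming rule uses no measured value, although the family was taken up with earlier results of these data known. All 6 libraries came from the same cell line at 1 dose and 1 length of treatment, so the values describe this line under this exposure. PolyA RNA was sequenced as read pairs, and each library held 78.6 M to 101.1 M estimated counts.

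Initiation begins when eIF2 brings the initiator tRNA to the small ribosomal subunit, with eIF3, eIF1 and eIF1A bound to it. The eIF4 proteins bind the mRNA cap and unwind the leader, the complex scans for a start codon, and eIF5 and eIF5B complete start codon recognition and the joining of the large subunit. eIF2B recharges eIF2 with GTP between rounds. In elongation, eEF1A delivers aminoacyl-tRNA, the eEF1B subunits recharge eEF1A, and eEF2 moves the ribosome by a codon at a time. Iron enters this machinery at several points: the hydroxylase that completes hypusine on eIF5A uses iron, diphthamide on eEF2 is started by an iron-sulfur enzyme, and the recycling factor ABCE1 carries iron-sulfur clusters.

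Of the 6 elongation factor genes 5 passed, all higher in Chelator, and of the 30 initiation and related genes that passed 26 were lower. With libraries centred on the mean change, 2 of those 5 elongation factors still passed, EEF1A2 and EEF1B2. DESeq2's Wald test gave an adjusted p for 56 of the 57 genes. EIF4E1B, the oocyte form of the cap-binding protein, had too few counts to test. Of the 56, 35 passed at an adjusted p under 0.05, 9 of them higher and 26 lower in Chelator, while 21 did not pass. That is 62.5% of the factors, beside 37.7% of all 24542 genes tested. Over all genes 19.5% passed higher and 18.3% lower. The factors are abundant, however, and among the 10341 genes whose normalized count averaged 500 or more, here called abundant genes, 61.6% passed. At that level 35 of 51 factors passed (68.6%), with 9 higher (17.6%, beside 26.0% of abundant genes) and 26 lower (51%, beside 35.6%). The share passing in both directions together lay nearer to that of abundant genes than the share passing lower, which was above it, or the share passing higher, which was below it. Normalized counts are estimated counts divided by a library size factor and by the relative length of the gene's transcripts in that library.

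The differences were mostly small. The median log2 fold change of the 56 factors was -0.17, beside 0.016 over all genes tested and -0.07 over abundant genes. Only EEF1A2 passed with an absolute log2 fold change above 1, which is 1.79% of the factors beside 10.8% of all genes (8.18% higher and 2.6% lower). Of the factors that passed, 2 were higher and 9 lower by more than 0.5 on the log2 scale. The values of the 2 groups did not overlap for 42 of the 56 factors (12 higher and 30 lower in Chelator), or 75.0%, beside 49.2% of all genes (25.5% higher and 23.7% lower). These are relative measures of bulk RNA, in which fewer cells of a kind and less RNA per cell cannot be told apart. The shares of 1.79% and 75.0% are set beside all genes and not beside abundant genes. The part of abundance in them was not tested.

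The plot of log2 fold changes by role shows the elongation factors to the right of 0 and the cap complex and eIF2B mostly to the left.

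**Figure D1:**
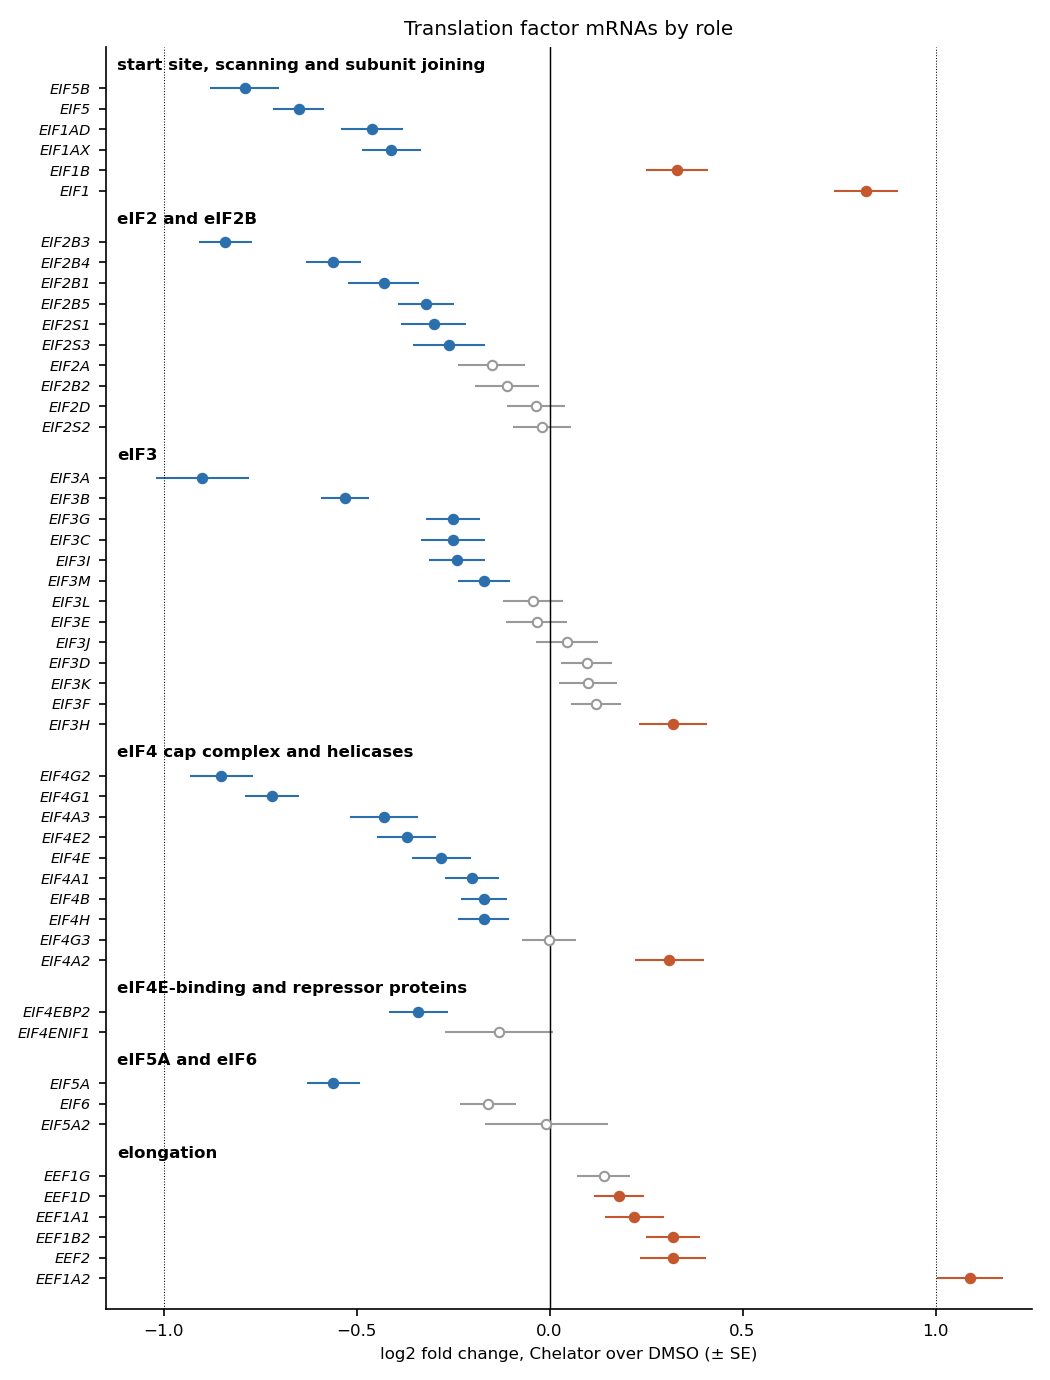
Log2 fold change of each factor's mRNA (Chelator over DMSO, 3 libraries each, bars are ± 1 SE), grouped by role, for the abundant factors other than EIF3CL. Filled points passed DESeq2's test at an adjusted p under 0.05 (orange higher, blue lower), open grey points did not, and the dotted lines mark a log2 fold change of 1 in either direction. EEF1A2 alone lies past a dotted line, at 1.09, and reads 0.99 when libraries are centred on the mean change.

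Of the 6 elongation factor genes, 5 rose and none fell, and in all 6 each Chelator library lay above each DMSO library. Their median log2 fold change was 0.27. The calls depended on the scaling: centring each library on the mean change, which moved the median over all genes by -0.10, left EEF1A2 and EEF1B2 passing and EEF1A1 (0.12), EEF2 (0.21) and EEF1D (0.078) not. EEF1A1 encodes the main form of eEF1A, and was the most abundant mRNA of the set. Its normalized counts were 1014000, 955400 and 990600 in DMSO and 1263000, 1074000 and 1116000 in Chelator (log2 fold change 0.22, SE 0.076, DESeq2 adjusted p = 0.0119). Without DMSO replicate 3 the change was still 0.22 but the DESeq2 adjusted p was 0.0515. EEF2, the translocase, had 444900, 441400 and 471600 normalized counts in DMSO and 598400, 494200 and 598000 in Chelator. The groups did not overlap (log2 fold change 0.32, SE 0.085, DESeq2 adjusted p = 0.000843). With trends in GC content and length removed EEF2 was at 0.16 and did not pass (DESeq2 adjusted p = 0.103). The normalized counts of EEF2 also depend on transcript length, and its mean effective length was 2897 bases in DMSO and 2714 in Chelator. In Chelator replicate 3 the retained-intron transcript EEF2-203 (218 bases) held 18.2% of the TPM of EEF2 on 1384 of its 525793 estimated counts.

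EEF1A2 encodes the second form of eEF1A, best known from neurons and muscle. It lies on the minus strand at chr20:63488013-63499239 (GRCh38). Its canonical transcript shared no 31-base stretch with any other gene that had a total count above 10. Its normalized counts were 2618, 2555 and 2591 in DMSO and 6001, 5489 and 5091 in Chelator. This was the largest rise of the set, 2.14-fold (log2 fold change 1.09, SE 0.085, DESeq2 adjusted p = 2.51e-36). It stayed a minor form: as a share of the TPM of both genes together it was 0.238% ± 0.00415 in DMSO and 0.435% ± 0.0250 in Chelator (SD, n = 3). TPM is the count per length of transcript, scaled to the same total in every library. The log2 fold change was 0.99 with mean centring and 0.85 with trends in GC content and transcript length removed, and under both EEF1A2 no longer passed a log2 fold change of 1.

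The eEF1B subunits moved less. EEF1B2, which encodes the alpha subunit that exchanges the nucleotide on eEF1A, had 19750, 17690 and 18230 normalized counts in DMSO and 22650, 23580 and 23040 in Chelator (log2 fold change 0.32, SE 0.069, DESeq2 adjusted p = 2.67e-05). EEF1D, the delta subunit, rose by 0.18 on the log2 scale (SE 0.064, DESeq2 adjusted p = 0.0141), and read -0.063 once trends in GC content and length were removed. EEF1G, the gamma subunit, had 189300, 174800 and 185400 in DMSO and 211600, 192600 and 202000 in Chelator. The groups did not overlap, but EEF1G did not pass (log2 fold change 0.14, SE 0.068, DESeq2 adjusted p = 0.087). It passed without Chelator replicate 2 and with protein-coding transcripts only, at 0.18 each, without the length offset (0.17), and by edgeR and with TMM, at 0.19 each. Of its canonical transcript 99.5% was shared with other annotated genes, among them a read-through gene that received at most 0.945% as many counts as EEF1G. That gene rose (log2 fold change 1.3, DESeq2 adjusted p = 0.0202), and its counts are themselves estimated from shared sequence.

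In TPM, RNA of the elongation factor genes made up a larger part of the set after chelation. The summed TPM of the 6 genes was 12620, 14150 and 12660 in DMSO and 16470, 15070 and 15590 in Chelator. The summed TPM of the 51 initiation and related factors was 12040 ± 594 in DMSO and 10560 ± 52.7 in Chelator (SD, n = 3). Both sums were free of overlap between groups, in opposite directions. The elongation share of the set was 52.2% ± 0.545 in DMSO and 59.8% ± 0.957 in Chelator, and EEF1A1 alone went from 33.2% ± 0.506 to 37.8% ± 1.16. These sums include transcripts not annotated as protein-coding. The protein-coding share of EEF1A1 went from 69.8% in DMSO to 65.4% in Chelator, and its retained-intron transcript EEF1A1-207 from 29.3% to 33.0%. The protein-coding share went from 91.0% to 83.8% in EEF2 and from 98.8% to 97.3% in EEF1G, and rose in EEF1A2, EEF1B2 and EEF1D. With protein-coding transcripts only, the lowest log2 fold change of the 6 genes was 0.18. Cytosolic ribosomal protein mRNAs, listed here for comparison, summed to 145100 ± 2330 TPM in DMSO and 176800 ± 8330 in Chelator. Of the 82 ribosomal protein genes tested, 45 passed higher and 3 lower, with a median log2 fold change of 0.25. With mean centring 24 passed higher and 5 lower.

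**Figure D2:**
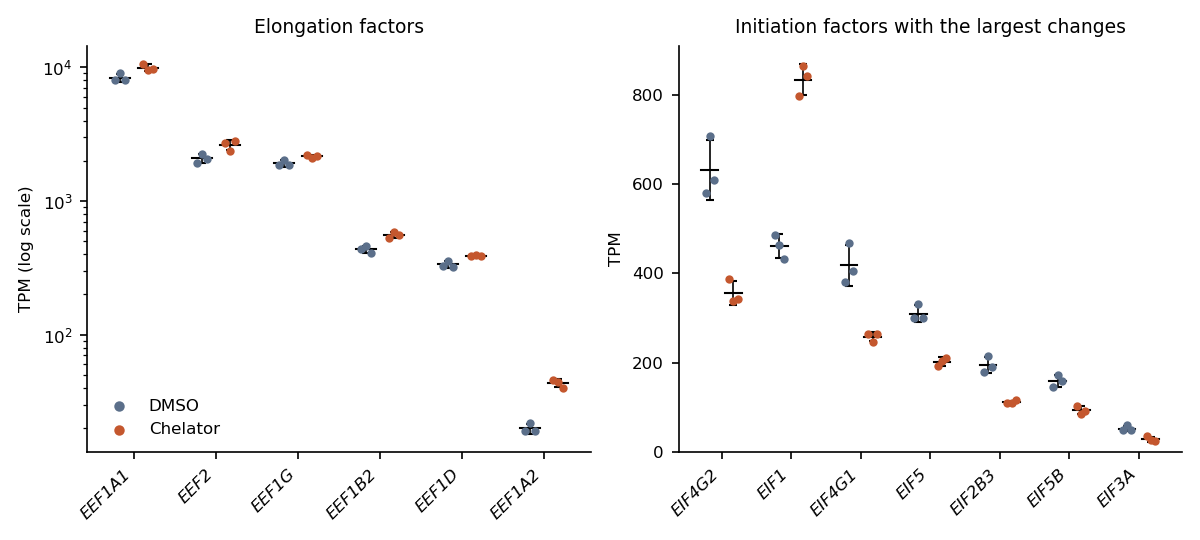
TPM of the 6 elongation factors (left, log scale) and of the initiation factors with the largest changes among those that passed (right, linear scale) in each library, with black bars for the mean ± SD of 3 libraries. All Chelator points lie above the DMSO points for the elongation factors and for EIF1, whose mean TPM is 461 in DMSO and 834 in Chelator, and below them for the other 6 genes on the right.

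The genes for start codon recognition and subunit joining held both the largest rise among initiation factors and some of the larger falls. Of 7 genes, 2 rose, 4 fell and EIF1AY did not pass. EIF1 encodes the small factor that keeps the scanning ribosome from starting at poor codons. It lies at chr17:41688885-41692668 on the plus strand. Its normalized counts were 28300, 22770 and 24850 in DMSO and 44010, 45000 and 45090 in Chelator, a 1.77-fold rise (log2 fold change 0.82, SE 0.084, DESeq2 adjusted p = 7.63e-21). Its paralog EIF1B rose by 0.33 (SE 0.080, DESeq2 adjusted p = 0.000186), from 4130, 3609 and 3905 in DMSO to 4888, 4736 and 5010 in Chelator. Both passed higher under all the alternatives run, including mean centring (0.72 and 0.23).

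Other factors that act at the start codon or just after it fell. EIF5, which triggers GTP hydrolysis by eIF2, had 28140, 26310 and 27730 normalized counts in DMSO and 17090, 17200 and 18250 in Chelator (log2 fold change -0.65, SE 0.066, DESeq2 adjusted p = 3.93e-21). EIF5B, the GTPase that joins the subunits, had 49320, 49530 and 53350 in DMSO and 33020, 26020 and 28740 in Chelator (log2 fold change -0.79, SE 0.090, DESeq2 adjusted p = 3.40e-17). Neither pair of groups overlapped. EIF1AD, a nuclear protein with an eIF1A-like domain, fell by 0.46 on the log2 scale (SE 0.080, DESeq2 adjusted p = 7.41e-08). Taking EIF5 and EIF1 together, EIF5 held 40.2% ± 1.88 of their TPM in DMSO and 19.5% ± 0.468 in Chelator.

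EIF1AX encodes eIF1A, which opens the scanning path together with eIF1. Its normalized counts were 24790, 22370 and 25360 in DMSO and 19140, 17360 and 18220 in Chelator (log2 fold change -0.41, SE 0.076, DESeq2 adjusted p = 6.08e-07). This value depended on how transcripts were counted, and the gene's mean effective length was 2210 bases in DMSO and 1504 in Chelator. Without the length offset it was -0.97, with trends in GC content and length removed -0.19, and with the counts of its pseudogene EIF1AXP1 added it was -0.19 and did not pass (DESeq2 adjusted p = 0.0656). EIF1AXP1 received 0 counts in each DMSO library and 71, 452 and 564 in Chelator.

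None of the 11 genes for eIF2 and its exchange factor rose, 6 fell and 5 did not pass, with a median log2 fold change of -0.29. The 3 largest falls were in genes of eIF2B. Of the 5 eIF2B subunit genes, 4 fell and the groups of all 5 did not overlap. EIF2B3, the gamma subunit of the catalytic part, had 12590, 12690 and 13190 normalized counts in DMSO and 7214, 6799 and 7434 in Chelator. This is 0.558 times the DMSO level (log2 fold change -0.84, SE 0.069, DESeq2 adjusted p = 9.60e-33). EIF2B4 fell by 0.56 on the log2 scale (SE 0.071), EIF2B1 by 0.43 (SE 0.093) and EIF2B5, the catalytic subunit, by 0.32 (SE 0.072). EIF2B2 gave -0.11 (SE 0.083, DESeq2 adjusted p = 0.342).

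Among the subunits of eIF2, EIF2S1 encodes alpha, whose phosphorylation turns eIF2 into an inhibitor of eIF2B. It had 17000, 14880 and 17200 normalized counts in DMSO and 14240, 12400 and 13130 in Chelator (log2 fold change -0.30, SE 0.084, DESeq2 adjusted p = 0.00133). With trends in GC content and length removed EIF2S1 was at -0.14 and did not pass (DESeq2 adjusted p = 0.126). EIF2S2, the beta subunit, had 26660, 23980 and 25990 in DMSO and 26960, 24420 and 24240 in Chelator. The groups overlapped, and the log2 fold change was -0.019 with a 95% confidence interval that reached 0.13 on the higher side. EIF2S3, the gamma subunit, passed at -0.26 (SE 0.093, DESeq2 adjusted p = 0.0146). It did not pass without DMSO replicate 3 (-0.16), Chelator replicate 2 (-0.23) or Chelator replicate 3 (-0.25), nor by edgeR (-0.22) or with those trends removed (-0.15). It shares sequence with EIF2S3B, and with the 2 genes summed the groups still did not overlap (69446 to 89178 normalized counts in DMSO, 62417 to 68208 in Chelator). EIF2A and EIF2D, which have reported roles in tRNA delivery without eIF2, did not pass (log2 fold changes of -0.15 and -0.035). EIF2A passed with mean centring (-0.25) and with protein-coding transcripts only (-0.31).

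The multisubunit eIF3 was uneven. Of its 14 genes, 6 fell, 1 rose and 7 did not pass, and the median log2 fold change was -0.10. EIF3A encodes the largest subunit, a scaffold for the rest, and lies at chr10:119033670-119080817 on the minus strand. Its normalized counts were 23100, 24040 and 22760 in DMSO and 15750, 11140 and 10650 in Chelator. This was the largest fall of the whole set (log2 fold change -0.90, SE 0.12, DESeq2 adjusted p = 3.57e-12). Chelator replicate 1 stood above the other Chelator libraries, and without it the change was -1.09, which would bring the number of factors past a log2 fold change of 1 to 2. EIF3B, the other scaffold subunit, had 80410, 78800 and 81920 in DMSO and 58050, 53550 and 55830 in Chelator (log2 fold change -0.53, SE 0.063, DESeq2 adjusted p = 1.01e-15).

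The subunits a, b, c, g and i form the core that is conserved in budding yeast, and all 5 of their genes fell, with a median of -0.25. EIF3C, EIF3G and EIF3I changed by -0.25, -0.25 and -0.24. Of the 7 genes for subunits d, e, f, h, k, l and m, 1 rose, 1 fell and 5 did not pass, with a median of 0.096. This division was made with the values known, so it describes the subunits and is not a test. EIF3H, a subunit outside the core, had 19450, 16730 and 20260 normalized counts in DMSO and 25030, 22620 and 22730 in Chelator (log2 fold change 0.32, SE 0.087, DESeq2 adjusted p = 0.00101). With mean centring it was 0.21 and did not pass, and EIF3D and EIF3K, which did not pass, turned from 0.096 and 0.10 to -0.0079 and -0.0033. Both passed higher with protein-coding transcripts only (0.12 and 0.16), and EIF3K also without the length offset (0.26). EIF3J, at 0.046, passed lower without the length offset (-0.22) and higher with trends in GC content and length removed (0.19). EIF3M passed at -0.17 (DESeq2 adjusted p = 0.0403) and read 0.014 with trends in GC content and length removed. It did not pass by edgeR or with TMM (-0.12 each), without the count filter (-0.17), or without DMSO replicate 1 (-0.16), DMSO replicate 3 (-0.14), Chelator replicate 2 or Chelator replicate 3 (-0.15 each).

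EIF3C was limited by shared sequence. It and its copy EIF3CL share 99.4% of the canonical transcript of EIF3C, so reads cannot be told apart with confidence. Summed, the pair had 91053, 90274 and 93628 normalized counts in DMSO and 85495, 71097 and 74186 in Chelator, without overlap. EIF3C alone did not pass by edgeR (-0.20), nor without DMSO replicate 3 (-0.23), Chelator replicate 2 (-0.19) or Chelator replicate 3 (-0.22). EIF3CL alone had 1251, 1310 and 1688 in DMSO and 395.5, 1030 and 1111 in Chelator. It gave -0.74 with an SE of 0.46 and did not pass. It passed without Chelator replicate 1, at -0.40, and with the replicate number as a block, at -0.86.

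**Figure D3:**
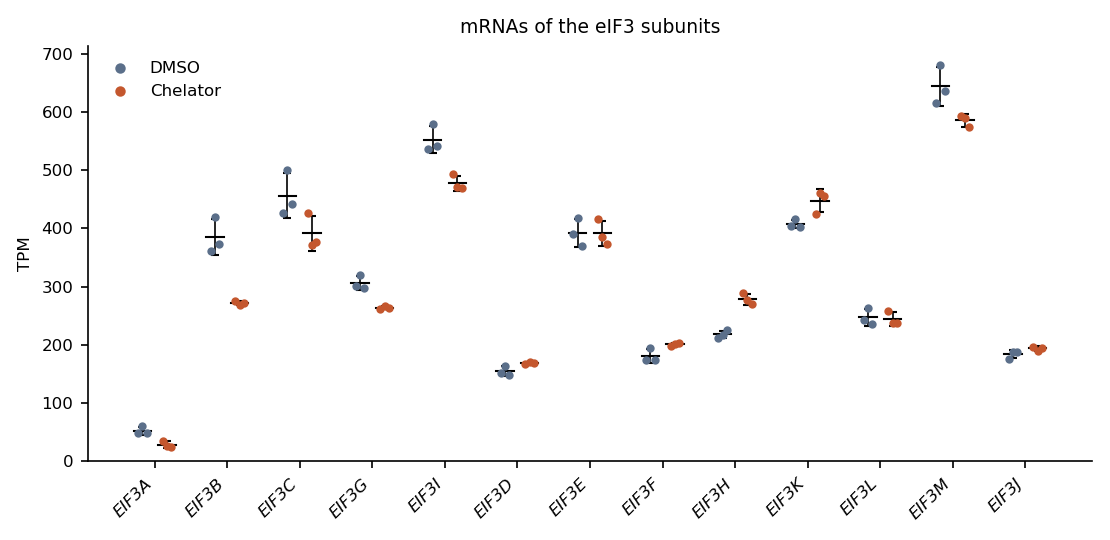
TPM of the 13 genes for eIF3 subunits (EIF3CL left out) in each library, with black bars for the mean ± SD of 3 libraries. EIF3A, EIF3B, EIF3C, EIF3G, EIF3I and EIF3M lie lower in each Chelator library than in any DMSO library, EIF3C by the narrowest margin (425.6 against 425.8), and EIF3D, EIF3F, EIF3H, EIF3J and EIF3K lie higher, of which EIF3H alone passed the test. Mean DMSO TPM runs from 52.6 for EIF3A to 644 for EIF3M.

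Levels per length also differed widely between subunits of the same complex, from a mean DMSO TPM of 52.6 for EIF3A to 644 for EIF3M. Of the EIF3M value in DMSO 35.9% was on protein-coding transcripts, and 45.6% was on a retained intron of 565 bases, whereas EIF3I had 97.0% on protein-coding transcripts. The TPM of EIF3B divided by that of EIF3H was 1.77 ± 0.148 in DMSO and 0.978 ± 0.0288 in Chelator (SD, n = 3).

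Of 11 genes tested for the cap complex and its helicases, 8 fell, 1 rose and 2 did not pass, with a median log2 fold change of -0.20. The largest falls were in the scaffold genes EIF4G1 and EIF4G2. EIF4G1, which bridges the cap-binding protein, the helicase and eIF3, had 134600, 139700 and 141100 normalized counts in DMSO and 88640, 77960 and 85640 in Chelator (log2 fold change -0.72, SE 0.070, DESeq2 adjusted p = 5.36e-23). EIF4G2, a relative that lacks the cap-binding protein's docking site, had 124600, 128500 and 128900 in DMSO and 78830, 65190 and 68020 in Chelator (log2 fold change -0.85, SE 0.081, DESeq2 adjusted p = 3.59e-24). EIF4G3, another scaffold, had 6922, 7188 and 6819 in DMSO and 6757, 6807 and 7350 in Chelator, with overlapping groups (log2 fold change -0.0013, SE 0.071, DESeq2 adjusted p = 0.992). Its share of the TPM of EIF4G3 and EIF4G1 was 4.90% ± 0.166 in DMSO and 7.83% ± 0.524 in Chelator.

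EIF4E, the cap-binding protein, had 10080, 9079 and 9432 normalized counts in DMSO and 7433, 8208 and 7963 in Chelator (log2 fold change -0.28, SE 0.076, DESeq2 adjusted p = 0.00108). With trends in GC content and length removed EIF4E was at -0.081 and did not pass (DESeq2 adjusted p = 0.43). EIF4E2, a cap-binding relative, fell by 0.37 on the log2 scale (SE 0.077). EIF4B and EIF4H, which stimulate the helicase, each passed at -0.17, and neither passed by edgeR, at -0.13 each. EIF4B did not pass with trends removed (-0.092), and EIF4H did not pass with TMM (-0.13) or without DMSO replicate 1 (-0.16), DMSO replicate 3 (-0.15), Chelator replicate 2 (-0.14) or Chelator replicate 3 (-0.17). EIF4A3, the helicase of the exon junction complex, fell by 0.43 on the log2 scale (SE 0.088, DESeq2 adjusted p = 5.57e-06).

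The helicase paralogs of the cap complex went in opposite directions. EIF4A1 had 65620, 58330 and 64150 normalized counts in DMSO and 56340, 53890 and 53930 in Chelator (log2 fold change -0.20, SE 0.070, DESeq2 adjusted p = 0.015). EIF4A2 had 15410, 12150 and 13950 in DMSO and 17200, 16960 and 17440 in Chelator (log2 fold change 0.31, SE 0.089, DESeq2 adjusted p = 0.00165). As a share of the TPM of both, EIF4A2 was 20.1% ± 0.977 in DMSO and 26.5% ± 0.563 in Chelator. Neither call was firm. All of the canonical EIF4A1 transcript (100.0% of its 31-base words) was shared with other annotated genes. Of these, a long noncoding RNA gene received at most 0.741% as many counts as EIF4A1 and fell (log2 fold change -0.53, DESeq2 adjusted p = 0.00702). The read-through gene SENP3-EIF4A1 received at most 0.687%. Such counts are themselves estimated from shared sequence, so they do not bound how many reads were misassigned. EIF4A1 did not pass by edgeR (-0.15), nor without DMSO replicate 1 (-0.17), DMSO replicate 3, Chelator replicate 2 or Chelator replicate 3 (-0.18 each). EIF4A2 was at 0.21 with mean centring, where it did not pass, and at -0.013 when only its protein-coding transcripts were counted.

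Among proteins that bind eIF4E, EIF4EBP2, a repressor that competes with eIF4G for eIF4E, had 36150, 38240 and 38250 normalized counts in DMSO and 32050, 27330 and 29500 in Chelator (log2 fold change -0.34, SE 0.076, DESeq2 adjusted p = 4.01e-05). EIF4ENIF1, which shuttles eIF4E to the nucleus, had 1375, 1915 and 2033 in DMSO and 1830, 1476 and 1547 in Chelator. Its groups overlapped, and it gave -0.13 (SE 0.14) and did not pass, running from -0.29 without DMSO replicate 1 to -0.024 without DMSO replicate 3. Without the length offset it was at -0.55 and passed (DESeq2 adjusted p = 1.42e-08). EIF5A, the hypusine-bearing factor that helps the ribosome through difficult peptide bonds, fell without overlap between groups. It had 109900, 103000 and 115000 in DMSO and 75710, 71760 and 75410 in Chelator (log2 fold change -0.56, SE 0.068, DESeq2 adjusted p = 4.38e-15). Its paralog EIF5A2 had 1063, 1079 and 1485 in DMSO and 978.5, 1292 and 1338 in Chelator, with overlapping groups and a log2 fold change of -0.0080 (SE 0.16). This value rested on the length offset: the mean effective length was 1713 bases in DMSO and 1047 in Chelator, and without the offset EIF5A2 was at -0.75 and passed (DESeq2 adjusted p = 2.84e-12). EIF6, which keeps the ribosomal subunits apart, gave -0.16 (SE 0.073, DESeq2 adjusted p = 0.0694). It passed without DMSO replicate 2 and with protein-coding transcripts only, at -0.21 each, with mean centring (-0.27) and with trends removed (-0.31). The 6 genes whose normalized count averaged under 500 were EIF4E1B, EIF4E3, EIF4EBP3, EIF2S3B, EIF5AL1 and EIF1AY, and none of them passed. With mean centring EIF2S3B passed, at -0.39 (DESeq2 adjusted p = 0.0492).

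Enzymes and partners of the factors were read in the same fit, as lists. Of 10 genes for the modification of eIF5A and eEF2 and for ABCE1, none rose and 5 fell, and 1 was past a log2 fold change of 1. DHPS, which starts hypusine, had 3859 ± 214.6 normalized counts in DMSO and 4180 ± 246.0 in Chelator and did not pass (DESeq2 adjusted p = 0.299). DOHH, the iron-dependent hydroxylase that finishes it, fell by 0.25 on the log2 scale (SE 0.078, DESeq2 adjusted p = 0.00573). DPH2, the partner of DPH1 in the first step of diphthamide, had 10180 ± 527.9 in DMSO and 4529 ± 260.5 in Chelator (log2 fold change -1.17, SE 0.078, DESeq2 adjusted p = 1.33e-48), and DPH1 fell by 0.55 (SE 0.10). ABCE1, which splits ribosomes after termination, fell by 0.46 (SE 0.073, DESeq2 adjusted p = 2.04e-09).

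Of 21 regulators of the factors, 6 rose, 8 fell and 7 did not pass. The 2 past a log2 fold change of 1 were both higher. PPP1R15A, which brings a phosphatase to eIF2 alpha, had 4768 ± 387.7 normalized counts in DMSO and 15790 ± 527.8 in Chelator (log2 fold change 1.73, SE 0.079, DESeq2 adjusted p = 9.01e-103). PDCD4, an inhibitor of eIF4A, went from 3152 ± 227.8 to 7417 ± 870.5 (log2 fold change 1.23, SE 0.10, DESeq2 adjusted p = 1.53e-33). EIF4EBP1, the best known repressor of eIF4E, rose by 0.37 on the log2 scale (SE 0.083, DESeq2 adjusted p = 3.68e-05), whereas its relative EIF4EBP2 fell. Of 13 genes for polyA binding, termination and recycling, 1 rose and 5 fell. Of 9 mitochondrial translation factors, none rose and 6 fell, and 1 was past a log2 fold change of 1: GFM1, the mitochondrial elongation factor G, at -1.09 (SE 0.080, DESeq2 adjusted p = 1.74e-40).

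Transcript usage asks whether the transcripts of a gene hold different shares of its RNA. Of 48 factor genes with at least 2 transcripts to compare, 17 passed edgeR's test (adjusted Simes p under 0.05) with a transcript share that moved by more than 5 percentage points. That is 35.4%, beside 9.22% of all 11938 genes tested, 10.8% of abundant genes and 24.3% of genes averaging 10000 or more. At this last depth 13 of 31 factors passed, or 41.9%. The libraries differed in fragment size, as read from the effective lengths: 252 to 264 bases in DMSO and 200 to 218 in Chelator, without overlap. Its part in the shares was not tested.

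The largest shift was in EIF1AX, whose transcripts differ mainly in length. The long transcript EIF1AX-202 (4414 bases) held 63.5%, 67.4% and 62.9% of the gene's TPM in DMSO and 47.5%, 41.3% and 39.1% in Chelator. The short EIF1AX-201 (765 bases) held the rest, and the groups did not overlap (change of 22.0 points, edgeR adjusted p = 0.00142). In EIF3J, which encodes a loosely bound eIF3 subunit, EIF3J-201 (2479 bases) went from 57.7% to 40.2% on average and the shorter EIF3J-203 (925 bases) from 33.0% to 41.6% (edgeR adjusted p = 1.15e-05). In EIF2A the transcript EIF2A-212 held 25.5%, 22.5% and 26.3% in DMSO and 17.3%, 8.08% and 4.18% in Chelator (edgeR adjusted p = 0.00622). EIF2A did not pass without DMSO replicate 1, DMSO replicate 2, Chelator replicate 2 or Chelator replicate 3 (edgeR adjusted p = 0.195, 0.13, 0.284 and 0.181).

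In EIF4G1 the largest loss and the largest gain were in protein-coding transcripts of like length, while the share on all its protein-coding transcripts went from 83.7% to 78.2%. EIF4G1-202 (5405 bases) held 26.6%, 27.2% and 22.2% of the TPM of EIF4G1 in DMSO and 15.0%, 13.2% and 10.7% in Chelator, while EIF4G1-209 (5569 bases) went from 11.5%, 10.4% and 13.3% to 16.4%, 20.3% and 18.9% (edgeR adjusted p = 3.02e-38). EEF1D-218, a protein-coding transcript of 926 bases, rose from 1.90% to 15.7% of EEF1D on average (edgeR adjusted p = 1.30e-13), and the retained intron EEF1D-229 went from 11.5% to 5.88%. In EIF4G3, whose total did not pass, EIF4G3-201 went from 19.8% to 6.97% and EIF4G3-212 from 7.24% to 15.0% (edgeR adjusted p = 0.00104). The other genes that passed were EIF4A2, EEF1A2, EIF4E, EEF1B2, EIF3L, EIF3F, EIF3M, EIF4B, EEF2, EIF4A1 and EIF1, with largest shifts from 11.8 down to 5.42 points. Without Chelator replicate 2 or Chelator replicate 3, 11 genes passed. Besides EIF2A, the genes that lost the call without at least 1 of the 6 libraries were EEF1A2, EEF1B2, EEF2, EIF1, EIF3L, EIF3M, EIF4A1 and EIF4E, and EEF1A2 and EEF2 also lost it by limma. EEF1A2 lost it at a minimum of 50 counts as well.

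Annotated transcripts also include retained introns and decay targets that make no full protein. The share of TPM on protein-coding transcripts was lower in Chelator by more than 5 points, without overlap, in 10 of 51 factors (19.6%, beside 15.0% of 9654 abundant protein-coding genes) and higher in 2 (3.92%, beside 4.34%). Both shares were near the background. In EIF4E it was 97.8%, 97.5% and 96.9% in DMSO and 90.3%, 80.7% and 83.5% in Chelator. In EIF3F, an eIF3 subunit whose total gave 0.12 and did not pass, it was 17.3%, 18.2% and 15.6% in DMSO and 8.40%, 6.75% and 6.51% in Chelator. Counting only protein-coding transcripts, EIF3F was at -1.06 and passed (DESeq2 adjusted p = 1.75e-22). Over all its transcripts it passed higher by edgeR and with TMM, at 0.17 each, and with trends in GC content and length removed, at 0.30.

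**Figure D4:**
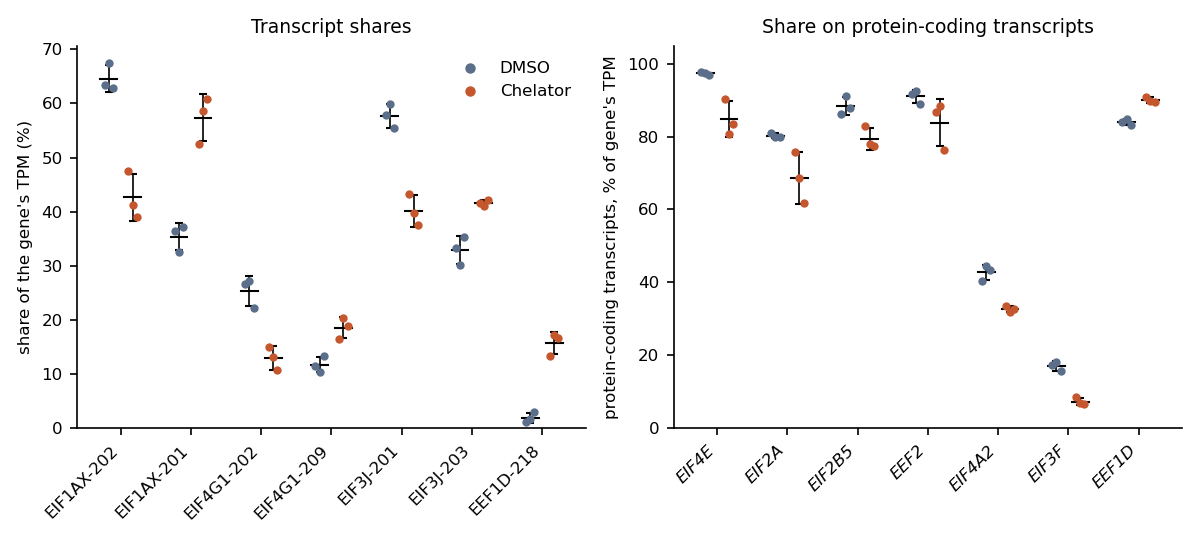
Share of a gene's TPM held by single transcripts (left) and by all its protein-coding transcripts (right) in each library, in percent, with black bars for the mean ± SD of 3 libraries. EIF1AX-202 falls from a mean of 64.6% in DMSO to 42.6% in Chelator as EIF1AX-201 rises from 35.4% to 57.4%. On the right, all genes but EEF1D are lower in Chelator without overlap.

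The first bases of these mRNAs are shown because many mRNAs of the translation apparatus begin with a pyrimidine tract, the 5′ terminal oligopyrimidine or TOP motif, through which growth signalling controls their translation. RefSeq promoters (GRCh38.p14) matched 48 of the 57 genes. Each window below spans 10 bases before and 20 bases from the annotated start, written 5′ to 3′ on the gene's strand, with the longest unbroken run of C or T in capitals. The genes were picked with their values known: the first 4 have long runs at the start, and the last 4, which are among the larger falls, have short ones.
EEF1A1 (chr6:73521013-73521042, minus strand): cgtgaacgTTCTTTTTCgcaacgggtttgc
EEF2 (chr19:3985444-3985473, minus strand): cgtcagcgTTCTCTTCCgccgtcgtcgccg
EIF3D (chr22:36529147-36529176, minus strand): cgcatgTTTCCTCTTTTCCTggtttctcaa
EIF3F (chr11:7987327-7987356, plus strand): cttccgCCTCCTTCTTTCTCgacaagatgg
EIF4G1 (chr3:184314596-184314625, plus strand): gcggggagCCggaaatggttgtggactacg
EIF2B3 (chr1:44986576-44986605, minus strand): gCTgtcagtcagaggcggcgtggagatcgc
EIF5 (chr14:103334227-103334256, plus strand): ggcgttgttcagtcagagcgagaacaTTCC
EIF5B (chr2:99337379-99337408, plus strand): ctgagaactcacaccatatgtgTCCTgttc

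A run of at least 8 pyrimidines lay in the window of 14 of 48 factors (29.2%), beside 12.6% of 15842 protein-coding genes and 76.9% of 65 ribosomal protein genes matched. It was found in 2 of 6 factors that passed higher, 4 of 24 that passed lower and 8 of 17 that did not pass. EEF1A1 and EEF2 have runs of 9, EIF3D and EIF3F of 14. Genes not shown went the other way: EIF2S3, EIF4B, EIF3M and EIF4H passed lower with runs of 15, 12, 11 and 8. EIF1 and EIF4A2 passed higher with runs of 7, and EIF1B and EEF1B2 with runs of 4. The counts describe the annotated starts, and the starts used in these cells were not measured.

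Short motifs were searched on both strands in the 300 bases from 250 before to 50 after each start. CACGTG, the E-box of MYC and related factors, was found in 11 of 48 factors (22.9%), beside 8.88% of all protein-coding promoters. It occurred in 6 of the 24 genes that passed lower, among them EIF2B3, EIF4G1, EIF4A3 and EIF4E, in 4 of the 17 that did not pass (23.5%, beside 25.0% of those that passed lower), and in 1 of the 6 that passed higher, EIF1B. ACGTG is part of CACGTG and of hypoxia response elements, so each promoter with CACGTG is counted for it again. It was in 19 of 48 factors (39.6%), 11 of them with CACGTG. Over all protein-coding promoters it was in 3756 of 15842 (23.7%), 1407 of them with CACGTG. Its excess is therefore not a result apart from that of the E-box. TGATGNAA, the element bound by ATF4 with C/EBP proteins, was in 0 of 48 beside 2.53%, and TATAAA was in 3 of 48 (6.25%) beside 9.63%, including EEF2 and EIF4A2.

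Transcript length moved weakly with the change. Over the 51 abundant factors, Spearman's rho of the log2 fold change with the length of the canonical transcript was -0.25, beside -0.15 over 10341 genes. These points share the same 6 libraries. The median length was 2090 bases for factors that passed higher and 2913 for those that passed lower. With GC content it was -0.021, beside 0.14 over all genes. With trends in GC content and length removed from each library, 9 factors passed higher and 22 lower.

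K562 markers were present throughout: the 8 erythroid marker genes summed to 12370 to 13710 TPM in DMSO and 17490 to 18670 in Chelator. Of the 8 genes 4 passed higher, 2 passed lower and 2 did not pass. Markers of other cells were also detected, and several were higher in Chelator. Of T and B cell genes, CD3D was at 10.0 to 16.2 TPM in DMSO and 38.9 to 40.7 in Chelator, CD3E at 0.0549 to 0.172 and 0.374 to 0.552, and MS4A1 at 0 in every library. The fibroblast genes COL1A1, COL3A1 and DCN summed to 0.554 to 0.728 and 1.74 to 2.28 TPM, and the monocyte genes CD14 and LYZ to 11.4 to 12.1 and 17.3 to 19.7 TPM. COL1A1 and LYZ carried these sums and passed higher, while the groups of COL3A1, DCN and CD14 overlapped. Their part in the factor values was not tested.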

How the data were processed

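PolyA RNA-seq of K562 cells was analysed, 3 DMSO and 3 Chelator libraries. The labels do not say whether these were separate cultures, so p-values measure the spread between these libraries. The deposited estimated counts and TPM per transcript were made by the authors with Salmon 1.10.2. The submitters' processing notes also name STAR 2.7.11b, FastQC, MultiQC, DESeq2 (3.19 as labelled) and the hg38 build. The paper names Ensembl as the source of the hg38 build used with STAR, and the annotation release is not given in the sources used here. Transcript identifiers were matched to GENCODE release 44 (unmatched transcripts held 0.139% to 0.150% of counts).

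Counts were summed per gene and rounded, genes with a total above 10 were kept, and DESeq2 1.42.0 (R 4.3.3) was run with median-ratio size factors and an offset for average transcript length. A gene passed at a Benjamini-Hochberg adjusted p under 0.05 over all genes. Transcript usage was tested with edgeR 4.0.16 (diffSpliceDGE, Simes p) on transcripts with 10 counts in 3 libraries, and in the alternative with limma 3.58.1. Both procedures were tested on simulated data. Sequence sharing was counted as 31-base words of each canonical transcript that also occur in another gene with a total count above 10.

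Members and gene lists were chosen with earlier results of these data known. Library values were given for members past a log2 fold change of 1, the 6 largest rises and falls among abundant members that passed, the extremes of each role and 10 core factors, and, of the lists, for called and preset genes. Same-numbered libraries did not deviate together in every pair (correlations -0.00363, 0.125 and 0.0939), so replicate numbers were not taken as pairs. The spread between libraries limits precision, and counting error was not measured apart from it. Some members have few counts, such as EIF1AY with 7 to 21 per library and an SE of 0.8. Of the marker genes read, 1 is not reported here.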

Additional observations from a re-analysis of the deposited data

How the results depend on the processing

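Alternatives named here were planned, except the removal of GC content and length trends, which was chosen after seeing the data. The number of factors passing was 29 to 36 when each library was left out in turn (8 to 10 higher, 21 to 27 lower), 31 by edgeR (11 higher, 20 lower), 35 with TMM, 40 without the length offset, 40 with protein-coding transcripts only, 33 with mean centring (4 higher, 29 lower) and 31 with GC content and length trends removed (9 higher, 22 lower). Mean centring also moved the factors' median to -0.28. Factors past a log2 fold change of 1 numbered 0 with mean centring, 0 with trends removed, 2 with protein-coding transcripts only (EEF1A2 at 1.36 and EIF3F) and 1 to 2 on leaving out a library. Usage calls numbered 10 at a share change above 10 points, 22 by limma and 11 to 17 on leaving out a library. The EEF2 shift was 3.77 points without Chelator replicate 3.

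Of the lists, genes for eIF5A and eEF2 modification passing lower numbered 8 without the offset. PolyA binding, termination and recycling genes passing higher numbered 2 by edgeR, 3 with TMM, 0 without the offset, 0 with mean centring and 4 with trends removed. Ribosomal protein genes passing higher numbered 24 with mean centring, and those passing lower 0 without the offset, 5 with mean centring, 7 with trends removed and 1 to 5 on leaving out a library.

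Direction turned for these log2 fold changes. By edgeR and with TMM, EIF2D was 0.011, EIF2S2 0.026, EIF3L 0.0018, EIF3E 0.012, EIF4G3 0.043 and EIF5A2 0.037. Without the offset EIF2D was 0.0040 and EIF3J -0.22. With mean centring EIF3J was -0.059, EIF3D -0.0079 and EIF3K -0.0033. With protein-coding transcripts only, EIF2D was 0.030, EIF2S2 0.036, EIF3E 0.026, EIF3F -1.06 and EIF4A2 -0.013. With trends removed, EIF2A was 0.0057, EIF2S2 0.049, EIF3M 0.014, EIF3E 0.12, EIF3K -0.0076, EIF4G3 0.11, EIF5A2 0.25 and EEF1D -0.063. On leaving out a library, EIF2S2 ran from -0.066 to 0.011, EIF3E from -0.097 to 0.0068, EIF3J from -0.018 to 0.096, EIF4G3 from -0.038 to 0.024, EIF4E3 from -0.0020 to 0.30, EIF5AL1 from -0.60 to 0.21 and EIF5A2 from -0.096 to 0.16. Of these, EIF3M, EIF4A2 and EEF1D passed in the fit reported. The cause was not tested.

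With the replicate number as a block, 35 factors passed, EIF3CL among them (-0.86, DESeq2 adjusted p = 0.000279) and EIF3M not (-0.17), and 15 passed for usage. The libraries share only a number, and not every library correlated best with its own.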
